A study of Homo sapiens with 2 samples.

Results

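Translation initiation and elongation factors were described in a long-read single-cell library of 3 pooled ovarian cancer cell lines. The members were the gene entries whose name begins with EIF followed by a digit from 1 to 6, or with EEF followed by 1 or 2. Pseudogene names were left out, and the genes EIF4EBP1, EIF4EBP2 and EIF4EBP3 were kept although their names end in P and a digit. This gave 70 of the 57110 gene entries in the authors' transcript table. The rule also took in genes that are not translation factors in the strict sense, such as kinases, methyltransferases and antisense RNAs, and these are described under their own roles.

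The pool held the established human ovarian cancer lines IGROV1, SK-OV-3 and COV504, untreated as far as the labels say, mixed in equal parts before capture. The pool was sequenced on Illumina and PromethION instruments, with 1 library on each, and the values below come from the PromethION library. The cells of each line were told apart by marker genes that are not translation factors, and each group is called by its leading marker. A barcode needed at least 1000 counts, with at least 75% of its marker counts in 1 of 3 sets: ERBB2, NNMT, TSPAN1 and DHRS2, or RARRES2 and TMEM100, or FOLR1, CLDN3, DEFB1 and CXCL14. This put 648 barcodes in the ERBB2-high group, 473 in the RARRES2-high group and 765 in the FOLR1-high group.

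Neighbours of ERBB2 on chromosome 17 served as a check outside the rule. MIEN1 stood at 528, 143 and 103 CPM (the gene's counts over the group's total, scaled to 1000000) in the ERBB2-high, RARRES2-high and FOLR1-high groups, STARD3 at 214, 22.2 and 13.3 CPM and PGAP3 at 22.9, 2.37 and 1.77 CPM. GRB7, also beside ERBB2, separated the groups less, with 56.4, 2.66 and 28.8 CPM. SK-OV-3 is known for the amplification of this region, so the ERBB2-high cells are SK-OV-3-like, and the other groups were given no line name. CDKN2A, which SK-OV-3 lacks, had 1, 0 and 88 counts, so its absence did not separate the ERBB2-high from the RARRES2-high cells. PTPRC, CD3E, HBB and ALB, markers of blood and liver cells, had at most 1 count in any group. The groups held 3442383, 3377992 and 4514999 counts, with medians of 4953, 6262 and 5289 counts per barcode. Ribosomal protein genes took 13.0%, 16.3% and 28.8% of these counts and mitochondrial genes 2.93%, 3.11% and 7.07%, which bears on every CPM value in the FOLR1-high group.

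Each group is made of cells of 1 library, so no value has a replicate and no test between groups was possible. All intervals are exact 95% intervals that cover counting error only. Differences were named by size: a fold of at least 1.5 between pooled CPM values, among entries with at least 100 counts over the 3 groups. In all lists of 3 values the order is ERBB2-high, RARRES2-high, FOLR1-high.

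Initiation begins when the cap-binding complex eIF4F, with the scaffold eIF4G, the cap-binding protein eIF4E and the helicase eIF4A, brings an mRNA to the small ribosomal subunit. That subunit carries eIF3, eIF1, eIF1A and the eIF2 complex with the initiator tRNA, and it scans for the start codon. In elongation, eEF1A delivers aminoacyl-tRNAs and eEF2 moves the ribosome along by a codon. Many mRNAs of this machinery begin with a cytosine followed by a run of pyrimidines, the 5′ terminal oligopyrimidine (TOP) tract, through which mTOR signalling controls their translation.

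The start sequences are shown first because some factors, EEF1A1 and EEF2 among them, differ from the rest of the list in them. RefSeq start sites (GRCh38.p14) were matched by symbol for 55 of the 70 factors. A start was called oligopyrimidine where the first base was C and at least 4 more C or T followed without a break, read on the gene's strand only. Of the 55 factors, 12 (21.8%) had such a start, against 5.14% of all 27305 genes in the RefSeq table when counted in the same way, by any listed start (4.07% of its 35116 promoters). All 12 were among the 48 matched factors with enough counts for a comparison (25.0%), against 8.24% of all 6455 such matched entries. They were EEF1A1, EEF1B2, EEF2, EIF2A, EIF2D, EIF2S3, EIF3D, EIF3F, EIF3K, EIF3M, EIF4A2 and EIF4B. Below are 30-base windows for the 7 of these that passed the fold against the FOLR1-high group in at least 1 pair, followed by EIF1, EIF5 and EEF1G without such a start. Each window runs from 10 bases before the start, 5′ to 3′, and capitals mark the run of pyrimidines that opens the transcript.
EEF1A1, chr6:73521013-73521042, minus strand: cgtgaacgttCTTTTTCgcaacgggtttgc
EEF2, chr19:3985444-3985473, minus strand: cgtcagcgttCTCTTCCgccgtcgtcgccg
EEF1B2, chr2:206159885-206159914, plus strand: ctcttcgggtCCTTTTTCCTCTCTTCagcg
EIF3D, chr22:36529147-36529176, minus strand: cgcatgtttcCTCTTTTCCTggtttctcaa
EIF3K, chr19:38619178-38619207, plus strand: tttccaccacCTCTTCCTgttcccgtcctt
EIF4A2, chr3:186783567-186783596, plus strand: gcgccgctgtCTTTTCagtcgggcgctgag
EIF4B, chr12:53006446-53006475, plus strand: tcatccgggtCTTTTgcgttctctttccct
EIF1, chr17:41688875-41688904, plus strand: ccgcccctctgccccagtcactgagccgcc
EIF5, chr14:103334227-103334256, plus strand: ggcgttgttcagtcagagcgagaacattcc
EEF1G, chr11:62573872-62573901, minus strand: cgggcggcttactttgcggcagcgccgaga
The call rests on the exact base that RefSeq gives as the start, so a start listed 1 base away can change it, and it says nothing of the starts used in these cells. EEF1B2 and EIF5 each have another listed start, and EEF1B2 was counted as oligopyrimidine by the start shown.

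Of the 70 factors, 61 had at least 100 counts over the 3 groups. Of the other 9, 6 had between 1 and 99 counts: EIF2AK3 (56), EIF4E3 (52), EEF1AKMT3 (22), EEF1A2 (10), EIF5AL1 (4) and EIF1B-AS1 (1). EIF4E1B, EIF1AY and EIF1AX-AS1 had 0 counts in every group, and 3 counts per group, the one-sided limit used for a count of 0, correspond to 0.871, 0.888 and 0.664 CPM. Together the factors held 1.91% (interval 1.90 to 1.93%) of the counts in the ERBB2-high group, 1.66% (1.65 to 1.68%) in the RARRES2-high group and 2.22% (2.21 to 2.23%) in the FOLR1-high group. In the 333 barcodes under 1000 counts, which belong to no group and had 27.4% mitochondrial counts, the factors held 1.28% (1.22 to 1.35%). Thinning every barcode to 2000 counts kept the order of the groups. The median barcode then had 38 factor counts (quartiles 33 and 43) in the ERBB2-high group, 33 (28 and 38) in the RARRES2-high group and 43 (38 and 49) in the FOLR1-high group, over 606, 443 and 733 barcodes. This left out 42, 30 and 32 shallower barcodes.

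Between their highest and lowest group, 47 of the 61 factors (77.0%) differed by at least 1.5 fold. The same was true of 80.6% of all 8486 entries tested, so the share among the factors was near the background. The factors past the fold were highest in the ERBB2-high group in 11 cases, in the RARRES2-high group in 19 and in the FOLR1-high group in 17, where 39.5%, 26.1% and 15.0% of all entries tested were. With totals that leave out mitochondrial and ribosomal protein genes these became 6, 15 and 23 (29.4%, 21.8% and 26.5% of all entries), and with scaling by the median of ratios 8, 16 and 21 (30.4%, 23.1% and 24.2%). EIF3A, EIF4A2 and EEF1E1 then moved to the FOLR1-high group as their highest under both scalings, and EIF4ENIF1 under the first. EEF2K newly passed the fold under both scalings and EIF3M under the first. Of the 47, 34 kept a fold of at least 1.5 between the same groups in each of the 8 alternatives tried, and the other 13, EEF1AKMT2, EEF1E1, EEF2KMT, EIF2B1, EIF2B2, EIF2B5, EIF2S1, EIF3A, EIF3C, EIF3F, EIF3J, EIF3J-AS1 and EIF4E, fell under it in at least 1.

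**Figure D1:**
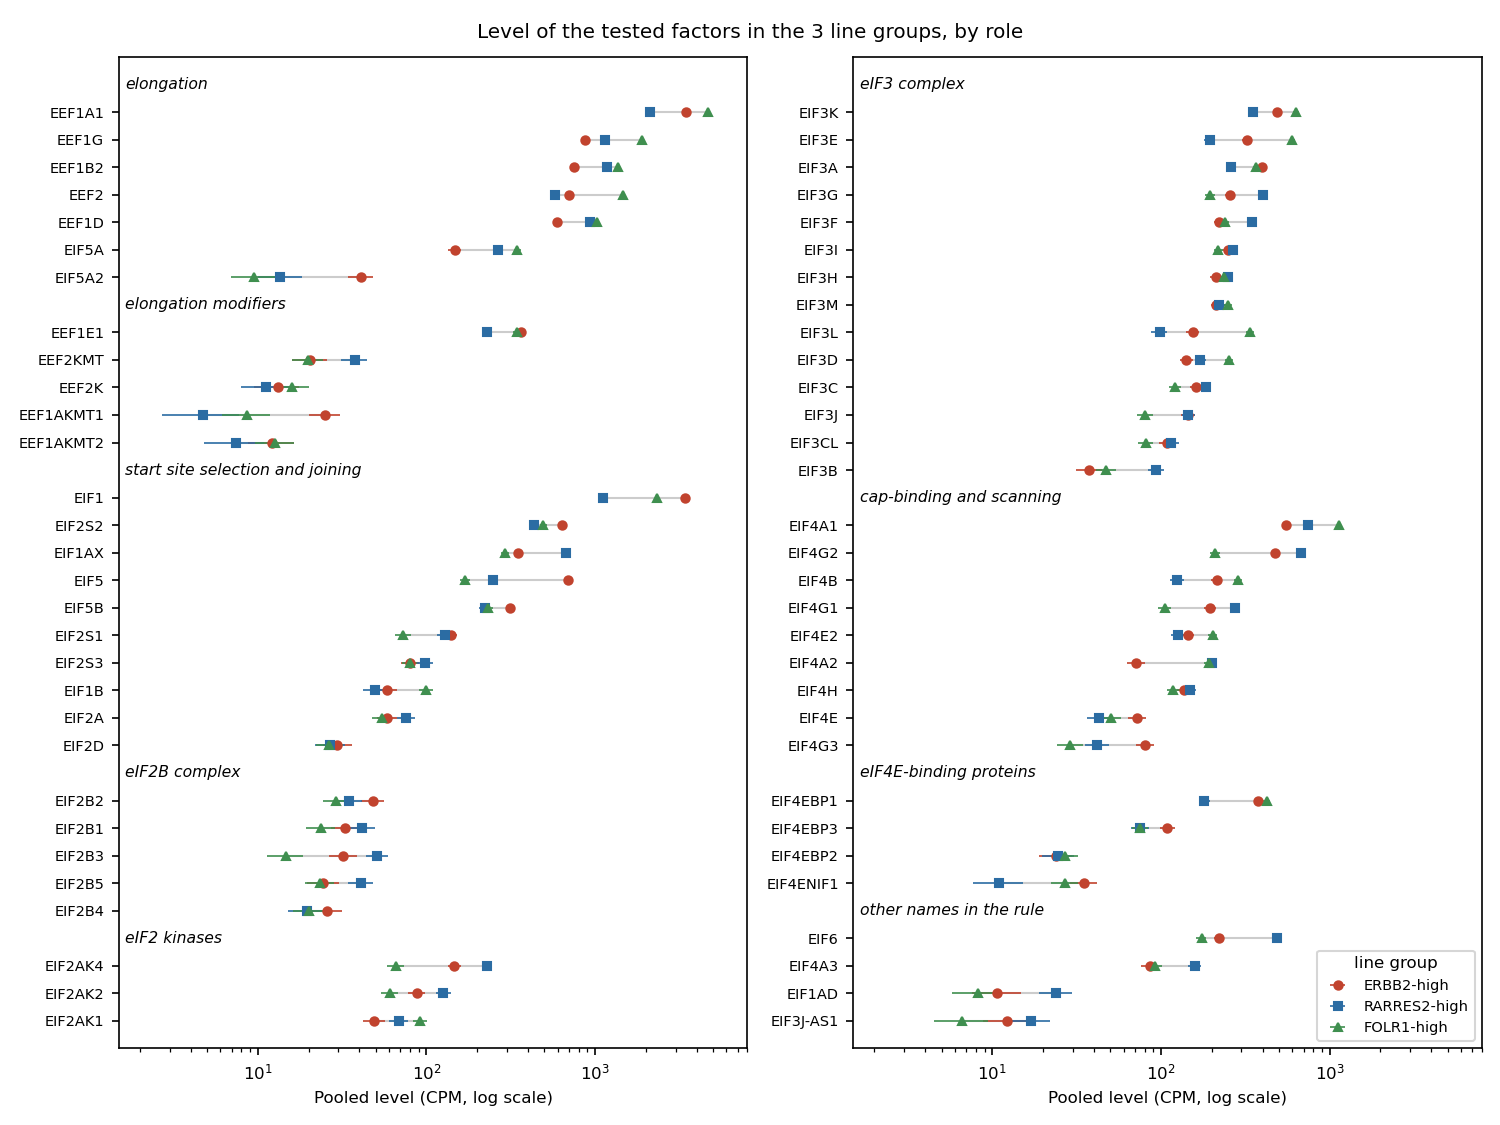
Pooled level of the 61 tested factors in CPM (log scale, horizontal axis), one row per gene, grouped by role. Circles, squares and triangles are the ERBB2-high, RARRES2-high and FOLR1-high groups, and bars are exact 95% Poisson intervals. EEF1A1 and EEF2 lie farthest right in the FOLR1-high group, EIF1 and EIF5 in the ERBB2-high group, and EIF4G2 and EIF6 in the RARRES2-high group.

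By pair of groups, 30 factors passed the fold between ERBB2-high and RARRES2-high cells (54.8% of all entries did), 24 between ERBB2-high and FOLR1-high cells (57.8%) and 33 between RARRES2-high and FOLR1-high cells (54.4%). Of these, 15 were higher and 15 lower in ERBB2-high than in RARRES2-high cells, where 34.0% and 20.8% of all entries were. Against FOLR1-high cells, 12 were higher and 12 lower in ERBB2-high cells, where 43.1% and 14.7% of all entries were. In RARRES2-high against FOLR1-high cells, 18 were higher and 15 lower, where 34.2% and 20.2% of all entries were. The median log2 fold of all entries was not 0 in these pairs but 0.21, 0.45 and 0.20 (first group over second), against -0.08, 0.12 and 0.02 for the factors. With totals that leave out mitochondrial and ribosomal protein genes, the splits of the factors were 14 higher and 16 lower (32.2% and 22.3% of all entries), 7 and 19 (26.5% and 24.1%), and 11 and 21 (23.4% and 30.8%), and the medians of all entries 0.14, 0.06 and -0.13. With scaling by the median of ratios they were 13 and 17 (31.6% and 22.7%), 8 and 18 (28.8% and 22.5%), and 13 and 21 (25.5% and 28.5%), and the medians of all entries 0.13, 0.12 and -0.06. The median absolute log2 fold of the factors was 0.55 between ERBB2-high and RARRES2-high cells (0.67 for all entries), 0.44 between ERBB2-high and FOLR1-high cells (0.71) and 0.69 between RARRES2-high and FOLR1-high cells (0.66).

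**Figure D2:**
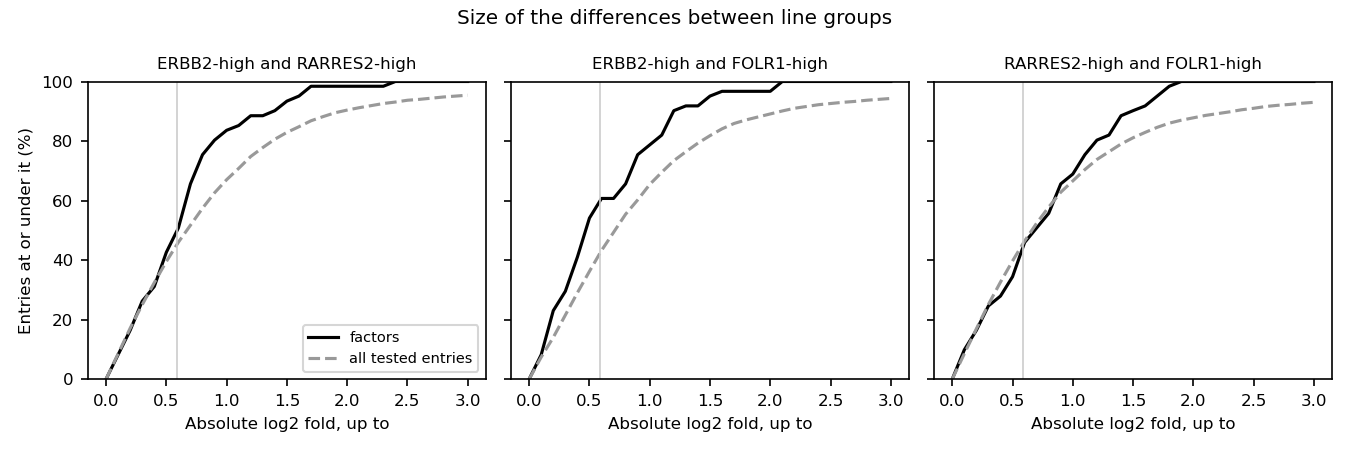
Cumulative share of entries (vertical axis, %) with an absolute log2 fold up to the value on the horizontal axis, for each pair of groups. The solid line is the 61 factors, the dashed line all 8486 tested entries, and the vertical line marks 1.5 fold. The lines run closest for RARRES2-high and FOLR1-high cells, the factors lie above all entries for ERBB2-high and FOLR1-high cells, and at large folds the factors' line is above in every panel.

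The elongation factors took 0.656%, 0.622% and 1.08% of all counts, and all 7 tested members passed the fold, 6 of them highest in FOLR1-high cells under the main scaling and under both other scalings. Of all entries 80.6% passed (77.7% under each of the other scalings), and 15.0% passed with FOLR1-high cells highest (26.5% and 24.2%). EEF1A1 (ENSG00000156508, chr6:73515750-73521721, minus strand), the carrier of aminoacyl-tRNA, had 3449.9, 2105 and 4696 CPM. Its level was 2.23 times (2.17 to 2.29) higher in FOLR1-high than in RARRES2-high cells. EEF1A1 has many processed copies in the genome, and reads wrongly assigned between them were not tested for. EEF2 (ENSG00000167658, chr19:3976056-3985469, minus strand), the translocase, had 704, 581 and 1453 CPM, so that FOLR1-high cells stood 2.50 times (2.38 to 2.63) above RARRES2-high cells, while the other groups were within 1.21 fold (1.14 to 1.29) of each other.

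The exchange factors that reload eEF1A with GTP followed a different order. EEF1B2 had 748, 1175 and 1363 CPM, EEF1D 594, 929 and 1025 CPM, and EEF1G 871, 1149.8 and 1889.9 CPM. These 3 subunits were lowest in ERBB2-high cells, whereas EEF1A1 and EEF2 were lowest in RARRES2-high cells. The EEF1G entry also holds the overlapping genes AP002990.1 and TUT1, and the transcript that GENCODE names EEF1G carried 89.7% of it.

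EIF5A and EIF5A2 are paralogs that carry the modified amino acid hypusine and help the ribosome through difficult stretches. EIF5A had 147, 266 and 346 CPM, a 2.36-fold range (2.13 to 2.61) with ERBB2-high cells at the bottom. EIF5A2 (ENSG00000163577, chr3:170888415-170908693, minus strand) had 40.7, 13.6 and 9.52 CPM from 140, 46 and 43 counts, with ERBB2-high cells at the top. The paralogs thus had opposite ends in the ERBB2-high group, and EIF5A2 was 4.27 times (3.01 to 6.16) higher there than in FOLR1-high cells. EEF1A2, the paralog of EEF1A1 known from muscle and nerve, had 6, 0 and 4 counts.

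Of the proteins that modify or accompany the elongation factors, EEF1AKMT1, a lysine methyltransferase of eEF1A, had low levels of 25.0, 4.74 and 8.64 CPM (86, 16 and 39 counts), highest in ERBB2-high cells by 5.27 fold (3.07 to 9.64) over RARRES2-high cells. EEF2KMT, which methylates eEF2, had 20.3, 37.6 and 19.9 CPM. EEF2K, the kinase that inhibits eEF2, had 13.1, 11.2 and 15.9 CPM and passed the fold (1.78 and 1.70, FOLR1-high over RARRES2-high cells) only under the other scalings, against 1.42 here. EEF1E1, a partner of the multi-synthetase complex, had 364, 229 and 342 CPM, but its entry joins TXNDC5 and BLOC1S5. EEF1E1's own transcripts, 71.8% of that entry, differed by 1.44 fold at most, under the limit. EEF1AKMT2 had 12.2, 7.40 and 12.6 CPM in an entry shared with FAM53B, and its own transcript differed by 1.32 fold.

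The factors of start codon selection and subunit joining took 0.577%, 0.306% and 0.385% of all counts. Of the 10 tested, 5 passed the fold, against 80.6% of all entries. EIF1, EIF5 and EIF2S1 were highest in ERBB2-high cells, 3 of 10 where 39.5% of all entries were, so the count is no higher than the background. EIF1 (ENSG00000173812, chr17:41688887-41692668, plus strand), which guards against initiation at wrong codons, had 3417, 1108 and 2327 CPM. ERBB2-high cells stood 3.08 times (2.97 to 3.20) above RARRES2-high cells. Their level was 1.47 times (1.43 to 1.51) that of FOLR1-high cells, under the fold, and 1.12 and 1.16 times under the other scalings. EIF5 (ENSG00000100664, chr14:103334002-103345025, plus strand), which drives GTP hydrolysis by eIF2 and also favours weaker start sites when abundant, had 691, 249 and 169 CPM. ERBB2-high cells were 2.78 times (2.57 to 3.01) above RARRES2-high cells and 4.10 times (3.77 to 4.45) above FOLR1-high cells in EIF5.

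The paralogs and partners of EIF1 went other ways. EIF1B had 58.1, 49.4 and 99.2 CPM, highest in FOLR1-high cells. EIF1AX, which helps recruit the initiator tRNA, had 351, 669 and 292 CPM, highest in RARRES2-high cells by 2.29 fold (2.14 to 2.45) over FOLR1-high cells. The eIF2 complex itself was more even. Its alpha subunit EIF2S1, the target of the stress kinases, had 139, 128 and 72.9 CPM, its beta subunit EIF2S2 had 636, 434 and 494 CPM, and its gamma subunit EIF2S3 had 80.2, 97.7 and 79.7 CPM. EIF5B, the GTPase of subunit joining, had 313, 221 and 233 CPM, and EIF2A and EIF2D, which can deliver initiator tRNA by other routes, stayed within 1.40 and 1.11 fold.

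**Figure D3:**
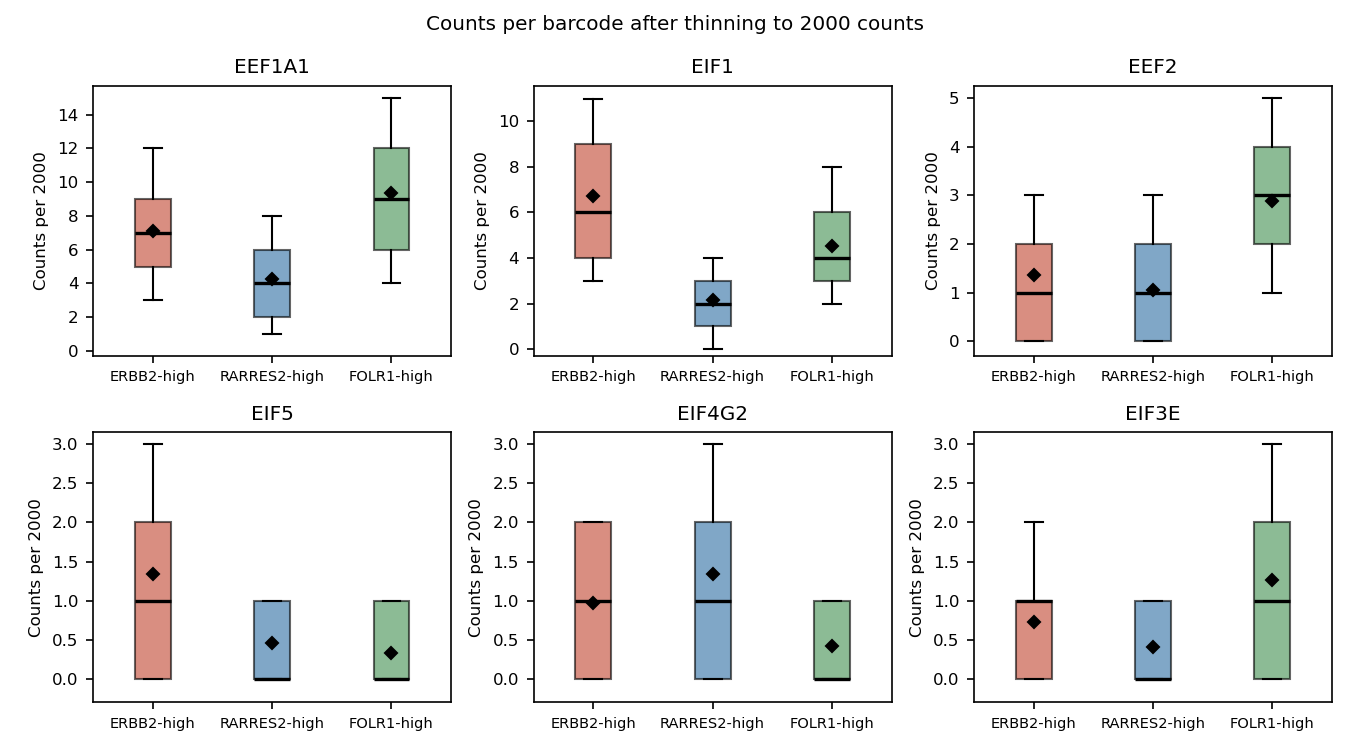
Counts per barcode of 6 factors after thinning to 2000 counts (606, 443 and 733 barcodes). Boxes are quartiles, thick lines medians, whiskers the 10th and 90th percentiles, and diamonds means. EIF1 has medians of 6, 2 and 4, EEF1A1 of 7, 4 and 9, and EEF2 of 1, 1 and 3.

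The gaps in these abundant factors were spread over the barcodes rather than held by a few of them. After thinning, EEF1A1 had a median of 7 counts (quartiles 5 and 9), 4 (2 and 6) and 9 (6 and 12) per barcode. EIF1 had 6 (4 and 9), 2 (1 and 3) and 4 (3 and 6), so the lower quartile of ERBB2-high barcodes lay above the upper quartile of RARRES2-high barcodes. EIF5 had mean values of 1.34, 0.454 and 0.332 counts per 2000. Within each of 3 depth ranges, from 1000, from 4000 and from 8000 counts, the order of the groups in EEF1A1, EEF2 and EIF1 was the same. EEF1A1 stood at 3635, 2280.1 and 4689 CPM in the shallowest range and at 2933, 2078 and 4711 CPM in the deepest.

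EIF2B exchanges GDP for GTP on eIF2, and the kinases EIF2AK1 to EIF2AK4 shut this step down by phosphorylating eIF2 alpha. The 5 eIF2B subunits were at low levels, and 4 of 5 passed the fold, near the 80.6% of all entries. These 4 were lowest in FOLR1-high cells, as 39.4% of all entries were. Under each of the other scalings, however, 2 of 5 passed, against 77.7% of all entries. Only 1 of them was then lowest in FOLR1-high cells (23.9% and 26.4% of all entries). The widest gap was in EIF2B3, which pairs with the catalytic subunit, with 32.2, 50.9 and 14.6 CPM (111, 172 and 66 counts) and a fold of 3.48 (2.61 to 4.70). EIF2B1 had 32.8, 41.7 and 23.7 CPM, EIF2B2 47.9, 34.6 and 29.2 CPM, and EIF2B5 24.4, 40.9 and 23.3 CPM. The folds of EIF2B1, EIF2B2 and EIF2B5 between these groups fell under 1.5 with both other scalings, and that of EIF2B3 did not.

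The kinases differed in direction. EIF2AK4 (GCN2, activated by amino acid shortage; ENSG00000128829, chr15:39934146-40035590, plus strand) had 146, 227 and 66.0 CPM, a fold of 3.44 (3.01 to 3.95) between RARRES2-high and FOLR1-high cells. EIF2AK2 (PKR, activated by double-stranded RNA) had 87.4, 126 and 60.5 CPM, the same order. EIF2AK1 (HRI, known for sensing heme) had 49.1, 68.7 and 91.5 CPM, highest in FOLR1-high cells. EIF2AK3 (PERK, of the endoplasmic reticulum) had 16, 19 and 21 counts, too few for a comparison.

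Genes of the stress response to eIF2 alpha phosphorylation were given beside the kinases as a list outside the name rule. Of 9 such genes tested, 8 passed the fold, near the 80.6% of all entries, and 7 of the 9 passed it with ERBB2-high cells highest, against 39.5% of all entries. These counts were the same under both other scalings, where the share of all entries highest in ERBB2-high cells was 29.4% and 30.4%. ATF4, the transcription factor at the head of this response, had 451, 137 and 279.5 CPM, and DDIT3, a pro-apoptotic factor of the same response, had 367, 56.8 and 64.0 CPM. CHAC1, a glutathione-degrading enzyme, had 102, 3.85 and 19.9 CPM. SESN2, TRIB3, CEBPB and PPP1R15B were also highest in ERBB2-high cells. ASNS, asparagine synthetase, was highest in FOLR1-high cells with 43.9, 25.8 and 135 CPM in an entry of several genes, and PPP1R15A did not pass the fold.

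The eIF3 complex, the largest scaffold on the small subunit, took 0.311%, 0.310% and 0.366% of all counts. Of 14 subunits tested, 10 passed the fold, against 80.6% of all entries. Of these, 5 were highest in RARRES2-high cells, 4 in FOLR1-high cells and 1 in ERBB2-high cells, where 26.1%, 15.0% and 39.5% of all entries were. The order of these counts depends on the scaling: they became 3, 6 and 0 (21.8%, 26.5% and 29.4% of all entries) with totals that leave out mitochondrial and ribosomal protein genes, and 4, 5 and 0 (23.1%, 24.2% and 30.4%) by the median of ratios. The widest gaps were in EIF3E and EIF3L. EIF3L (ENSG00000100129, chr22:37848868-37889407, plus strand) had 154, 98.0 and 337 CPM, a fold of 3.44 (3.05 to 3.89), and EIF3E (ENSG00000104408) had 322, 195 and 600.2 CPM, a fold of 3.08 (2.83 to 3.36). Both had the order FOLR1-high, ERBB2-high, RARRES2-high, and EIF3K, the partner of EIF3L, had the same order with 486, 352 and 632 CPM. EIF3D, a subunit with cap-binding activity on some mRNAs, had 141, 171 and 252 CPM.

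EIF3B and EIF3G, which carry RNA recognition motifs, and EIF3F were highest in RARRES2-high cells. EIF3B had 37.5, 93.5 and 47.4 CPM, EIF3G 258, 403 and 195 CPM, and EIF3F 222, 346 and 239 CPM. EIF3J, a loosely held subunit, had 145, 145 and 80.4 CPM, so that the ERBB2-high and RARRES2-high groups did not differ in it. EIF3A, the largest subunit, had 399, 261 and 367 CPM, and its highest group was FOLR1-high under both other scalings. EIF3C had 162, 184 and 121 CPM and EIF3CL 108, 115 and 81.1 CPM. These are near-identical copies on chromosome 16, so the division of reads between them is uncertain. EIF3H, EIF3I and EIF3M stayed within 1.21 fold, but with totals that leave out mitochondrial and ribosomal protein genes EIF3M passed the fold at 1.54 and EIF3H reached 1.48, both highest in FOLR1-high cells.

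Factors that bind the cap and unwind the leader took 0.194%, 0.238% and 0.233% of all counts, and 8 of 9 tested passed the fold, near the 80.6% of all entries. The 3 scaffolds of the eIF4G family were each lowest in FOLR1-high cells. EIF4G1 had 195, 273 and 105 CPM, and EIF4G2 (ENSG00000110321, chr11:10797050-10809110, minus strand), which lacks the eIF4E-binding part, had 471, 674 and 209 CPM with a fold of 3.22 (2.98 to 3.48). EIF4G3 had 80.8, 42.0 and 29.0 CPM, highest in ERBB2-high cells. These orders held under both other scalings at the lowest and highest group.

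The helicases had other orders. EIF4A1 had 549, 746 and 1137 CPM, highest in FOLR1-high cells, in an entry of several genes of which its own transcripts took 78.8% and differed by 2.28 fold. EIF4A2 (ENSG00000156976, chr3:186783547-186789900, plus strand) had 71.2, 200.4 and 192 CPM. EIF4A2 was 2.82 times (2.43 to 3.27) lower in ERBB2-high than in RARRES2-high cells, while the latter and FOLR1-high cells did not differ beyond counting error (1.04 fold, 0.942 to 1.16) and changed places under both other scalings. EIF4B, which stimulates the helicase, had 214, 125 and 287 CPM, and EIF4H, of the same function, had 137, 149 and 118 CPM without passing the fold.

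The cap-binding proteins were moderate. EIF4E had 72.3, 42.9 and 50.7 CPM, and its fold fell under 1.5 among barcodes of 4000 to 8000 counts. EIF4E2, which binds the cap without eIF4G and represses, had 144, 126 and 203 CPM. EIF4E3 had 27, 6 and 19 counts.

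Of the proteins that hold eIF4E back, EIF4EBP1, the best-known mTOR target among them, had 375, 181 and 423 CPM, lowest in RARRES2-high cells by 2.34 fold (2.14 to 2.57) against FOLR1-high cells. EIF4EBP2 had 23.8, 24.6 and 26.8 CPM, within 1.13 fold. The EIF4EBP3 entry had 109, 74.9 and 75.1 CPM, but it joins ANKHD1, and the transcript named EIF4EBP3 held 4.62% of it. EIF4ENIF1, which carries eIF4E to the nucleus and to P-bodies, had 34.9, 11.0 and 27.0 CPM (120, 37 and 122 counts).

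The other names taken in by the rule passed the fold and were highest in RARRES2-high cells in all 4 tested cases, as 26.1% of all entries did (21.8% and 23.1% under the other scalings, where the 4 stayed highest there). EIF6, which keeps the large ribosomal subunit from joining too early, had 219.9, 488 and 174 CPM, a fold of 2.81 (2.58 to 3.06). EIF4A3, part of the exon junction complex, had 85.7, 158 and 92.6 CPM. EIF1AD had 10.7, 23.7 and 8.19 CPM and EIF3J-AS1 12.2, 16.9 and 6.64 CPM. EIF3J-AS1 lies beside EIF3J on the other strand, and its fold fell under 1.5 among barcodes of 4000 to 8000 counts.

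Sorted by start sequence, none of the 12 factors with an oligopyrimidine start was higher in RARRES2-high than in FOLR1-high cells by the fold, and 4, EEF1A1, EEF2, EIF3K and EIF4B, were lower. Among all 532 entries with such a start, 25.4% were higher and 32.0% lower in this pair. Of the 36 factors with a listed start of another kind, 15 were higher and 7 lower, against 35.5% and 18.4% of 5923 entries. Tested factors without a matched start fall in neither class. They are EEF1AKMT1, EEF1D, EEF2KMT, EIF2AK1, EIF2S2, EIF3A, EIF3CL, EIF3E, EIF3G, EIF3H, EIF3J-AS1, EIF3L and EIF4EBP1. Their log2 folds in this pair ran from -1.78 in EIF3L to 1.34 in EIF3J-AS1. The median log2 fold, RARRES2-high over FOLR1-high, was -0.19 for factors with the tract and 0.42 for those without, and -0.10 and 0.24 for all entries. The counts without the tract depend on the scaling. With totals that leave out mitochondrial and ribosomal protein genes they became 9 higher and 10 lower (24.2% and 28.8% of all such entries), and by the median of ratios 10 and 10 (26.4% and 26.4%). With the tract, 0 were higher and 5 lower under either (16.2% and 43.2%, then 17.9% and 41.0%). The medians then were -0.52 with the tract and 0.09 without (-0.43 and -0.09 for all entries), and -0.45 and 0.16 (-0.36 and -0.02).

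In the pair of ERBB2-high and FOLR1-high cells, none of the 12 was higher in ERBB2-high cells and 4, EEF1B2, EEF2, EIF3D and EIF4A2, were lower, against 33.3% and 26.3% of all entries with the tract. Without the tract, 10 were higher and 4 lower, against 44.0% and 13.3%. With totals that leave out mitochondrial and ribosomal protein genes the counts became 0 higher and 8 lower with the tract and 6 and 7 without it, and by the median of ratios 0 and 7, and 7 and 7. Among all entries with the tract 21.8% and 37.6%, then 24.2% and 35.7%, passed in these directions, and of those without it 26.7% and 22.4%, then 29.1% and 20.8%. These counts under other scalings were added after seeing the data. Both pairs share the FOLR1-high cells, so they are not independent. Between ERBB2-high and RARRES2-high cells, 2 were higher and 3 lower of the factors with the tract (34.2% and 17.3% of all such entries), and 8 and 9 of those without it (33.3% and 20.9%). Ribosomal protein mRNAs, which carry the same tract, are part of the comparison entries and took the largest share of counts in FOLR1-high cells; their part in the result was not tested.

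**Figure D4:**
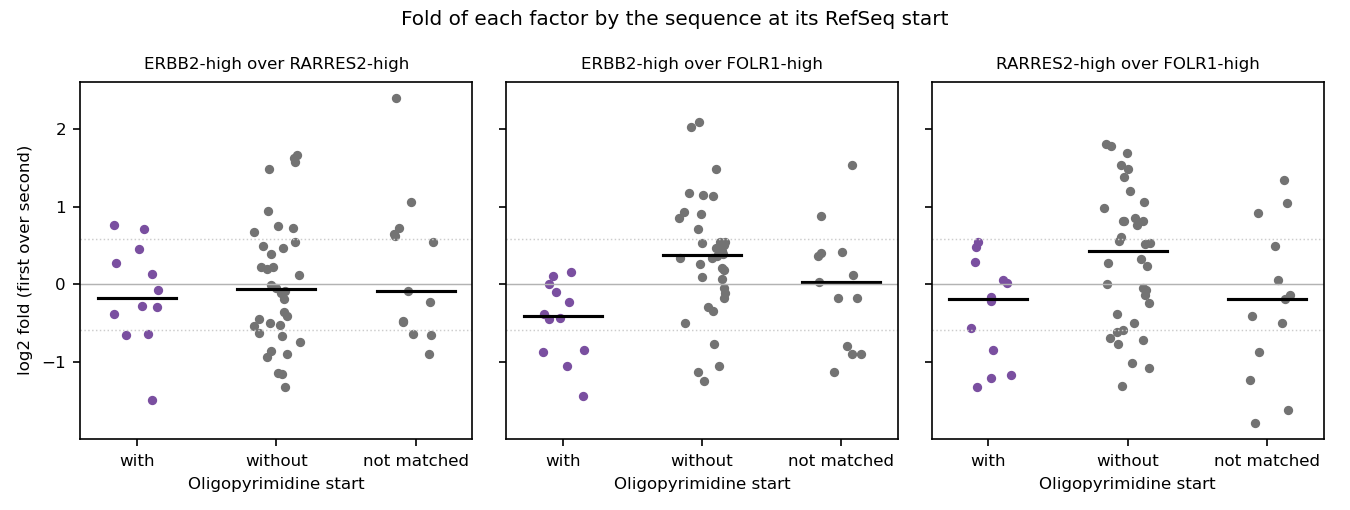
log2 fold of each tested factor (points, vertical axis) with and without an oligopyrimidine start at its RefSeq start site, or with no matched start, in each pair of groups. Black bars are medians and dotted lines mark 1.5 fold. In the pair of RARRES2-high over FOLR1-high cells, no factor with the tract lies above the upper dotted line and 4 lie under the lower one.

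Genes that work with the factors but lie outside the name rule differed in much the same share. Of 38 tested, 32 (84.2%) passed the fold, against 80.6% of all entries. PABPC1, the poly(A)-binding protein and itself a TOP mRNA, had 516, 490.2 and 1079 CPM, the same order as EEF2. LARP1, which represses TOP mRNAs, had 102, 144 and 86.6 CPM. PDCD4, an inhibitor of eIF4A, had 29.3, 5.03 and 46.7 CPM, a fold of 9.29 (5.66 to 16.2) that was lowest in RARRES2-high cells.

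Of 7 genes of termination and recycling, 5 passed the fold, against 80.6% of all entries. Under the other scalings 7 and 6 passed, against 77.7% of all entries under each. Among the 5 were DENR and MCTS1, partners that remove tRNA after termination, with 144, 119.9 and 40.5 CPM and 107, 168 and 58.7 CPM. Of 7 mTOR pathway genes, 5 passed, 4 of them highest in RARRES2-high cells (3 and 5 under the other scalings), where 80.6% of all entries passed and 26.1% were highest there (21.8% and 23.1%). RHEB, the activator of mTOR, had 90.1, 213 and 140.2 CPM, and MTOR itself 29.0, 29.9 and 27.5 CPM. TSC2, with 16.0, 18.9 and 10.2 CPM, RPTOR, and RPS6KB1 in an entry of several genes were also highest in RARRES2-high cells. TSC1 was highest in ERBB2-high cells, with 16.0, 11.0 and 5.76 CPM. The activity of the pathway was not tested. All 7 tested genes that modify eEF2 or eIF5A passed, as 80.6% of all entries did. Of these, 5 were highest in RARRES2-high cells (4 under each of the other scalings), against 26.1% of all entries (21.8% and 23.1%). The 5 were DPH2, DPH3, DPH6, DPH7 and DOHH, while DPH5 was highest in ERBB2-high cells and DHPS in FOLR1-high cells. DHPS, the first enzyme of hypusine synthesis, had 61.9, 40.0 and 75.5 CPM, and DOHH, the second, had 23.2, 24.0 and 10.2 CPM.

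Long reads also gave the share of each transcript within a gene. A difference of at least 20 percentage points in a transcript's share was counted among genes with 2 or more listed transcripts and at least 100 counts in both groups. Entries of several genes were left out. No factor of 34 reached it between ERBB2-high and RARRES2-high cells, where 2.37% of all genes did, and none of 35 between ERBB2-high and FOLR1-high cells, where 1.86% did. Between RARRES2-high and FOLR1-high cells 1 of 34 reached it, EIF2B5, where 2.996% did. The factors' shares were near the background here, and 29 of the 37 factors that could be compared in any pair stayed under 10 points in every pair. By pair, in the same order, 4, 2 and 4 factors reached 10 points, where 11.0%, 10.5% and 13.1% of all genes did.

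**Figure D5:**
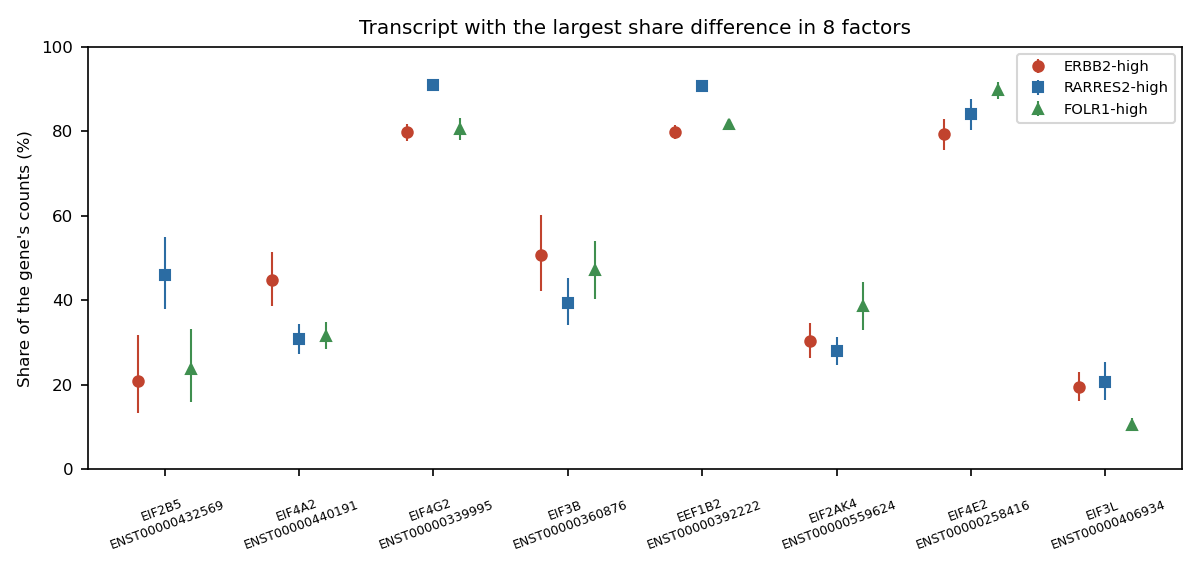
Share of the gene's counts (vertical axis, %) held by the transcript with the largest difference, for 8 factors, in each group. Bars are exact 95% Clopper-Pearson intervals on rounded counts, which do not cover the error of dividing shared reads. EIF2B5 has shares of 20.8%, 46.0% and 23.8%.

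In EIF2B5, which encodes the catalytic epsilon subunit (ENSG00000145191, chr3:184135264-184145310, plus strand), the short transcript ENST00000432569 took 20.8% (13.2 to 31.7%) of 84 counts, 46.0% (37.9 to 55.1%) of 138 and 23.8% (16.0 to 33.1%) of 105. The rest belonged to the full-length ENST00000273783. GENCODE release 29 gives the short form 2 exons and 107 codons, against 16 exons and 721 codons. It runs on past the end of exon 2 into the intron for 244 bases in GENCODE, and its end lies at 184137379 in the authors' table. The junction is shown because EIF2B5 was the only factor of that count past the limit, with the read-on in capitals.
EIF2B5, chr3:184136722-184136751, plus strand: caaagaacatttactGTAAGGCCCTGCAAC
Nearly all of the short form's counts were in whole values, not split estimates: 97.1%, 99.2% and 100% in the same order. The difference between RARRES2-high and FOLR1-high cells was 22.2 points, and 24.2 points without called doublets, where FOLR1-high cells had 99 counts and so fell below the minimum. The values rest on 63.50 and 25.00 counts of the short form.

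EIF4A2 came next. Its transcript ENST00000440191 took 44.9% (38.6 to 51.4%), 30.8% (27.4 to 34.5%) and 31.6% (28.5 to 34.8%), highest in ERBB2-high cells, where the gene's level was lowest. It differs from ENST00000323963 at the start of exon 2, where it holds 3 more bases and so 1 more codon, 408 against 407. The exon is shown with these bases in capitals.
EIF4A2 exon 2, chr3:186784429-186784477, plus strand: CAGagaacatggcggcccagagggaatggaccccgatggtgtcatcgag
Of this transcript's counts, 47.2%, 36.4% and 46.4% were in whole values, and the rest were split estimates. With whole values alone the difference between ERBB2-high and RARRES2-high cells was 11.1 points, against 14.1 points with all.

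The next 3 factors differed at their ends. In EIF4G2, ENST00000339995, with its own first exon, took 79.8%, 91.1% and 80.6%, and in EEF1B2, ENST00000392222 took 79.9%, 90.7% and 81.7%. Both were highest in RARRES2-high cells and keep the coding length of the next most abundant form, but only 5.88% to 32.3% of the EIF4G2 counts were whole, and the differences between ERBB2-high and RARRES2-high cells shrank to -3.19 and -6.60 points with whole values alone. In EIF3B, ENST00000360876, which differs from ENST00000397011 in its last exon beyond the coding part, took 50.8%, 39.4% and 47.2%. EIF3B was the only factor whose leading transcript, by the estimated share, changed between groups of a compared pair. In ERBB2-high cells ENST00000360876 held 65.53 counts (42.2 to 60.1%) and ENST00000397011 63.47 (39.9 to 57.8%). Which form leads in these cells is therefore not settled.

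The remaining 3 change the protein's length in GENCODE. In EIF2AK4, the 11-exon ENST00000559624 of 616 codons took 30.4%, 27.9% and 38.6%, beside the 39-exon form of 1649 codons. In EIF4E2, ENST00000258416 of 245 codons took 79.5%, 84.2% and 89.9%. In EIF3L, ENST00000406934 of 466 codons took 19.5%, 20.6% and 10.5%, lowest in FOLR1-high cells, where EIF3L's level was highest. None of these reached 20 points.

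EEF1E1 was left out of that count because its entry joins several genes, and it was looked at after its values were seen. Among its own transcripts, the 3-exon ENST00000507463 of 150 codons took 15.6% (13.2 to 18.2%) of 861 counts, 32.5% (28.8 to 36.5%) of 587 and 13.2% (11.3 to 15.3%) of 1114. The 4-exon ENST00000379715 of 174 codons took 81.2%, 63.2% and 86.2%, a range of 22.9 points that is past the limit of 20. At least 96.4% of the short form's counts were whole in each group.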

How the data were processed

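The authors deposited expected counts, estimates per transcript and cell barcode that can be fractions, and they are not normalised. The series design names Isosceles; GRCh38 and Cell Ranger 6.0.1 are in the submitters' processing notes with no role given. Not given in the sources used here: how molecular identifiers were treated, which aligner ran, and which annotation was used. Counts may therefore be reads or molecules. Of the matrix values 39.8% were whole within 1e-06, and 100% of sums per gene entry and barcode were.

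Counts were summed per gene entry and line group, rounded, and divided by the group total to give CPM; 722 entries hold several overlapping genes. Of 2129 barcodes with at least 1000 counts, 243 met no marker rule. Exact Poisson, Clopper-Pearson and conditional ratio intervals were computed with scipy 1.17.1, and doublets with Scrublet in scanpy 1.11.5. The fold calls and the exact intervals of folds and shares were tested on simulated counts. Named genes were the 20 factors with most counts, all past 1.5 fold, the paralog pairs, and the 8 factors with the largest share differences. Members, lists and rules were chosen with earlier results of these data known. Illumina values were not analysed here. Exons come from GENCODE release 29, matched by identifier, and start sequences from RefSeq.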

Additional observations from a re-analysis of the deposited data

How the results depend on the processing

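No paired analysis was possible because there was 1 library per platform. The factors' share of counts in the ERBB2-high, RARRES2-high and FOLR1-high groups became 2.28%, 2.06% and 3.46% with mitochondrial and ribosomal protein genes left out of the total, 1.70%, 1.40% and 1.86% without entries of several genes, and 1.87%, 1.62% and 2.16% with only the factor's own transcripts in those entries, a choice made after seeing the data. It was 1.69% in RARRES2-high cells at a marker share of 90%, 1.95% and 2.18% in ERBB2-high and FOLR1-high barcodes of 4000 to 8000 counts, and 2.20% in FOLR1-high cells as a mean over barcodes. At a lower fold limit tried, 43 factors (77.0% of all entries) differed between ERBB2-high and FOLR1-high cells, against 24 at 1.5. At a fold of 2 the numbers were 10 for ERBB2-high and RARRES2-high (33.0% of all entries), 13 for ERBB2-high and FOLR1-high (34.6%), and 19 for RARRES2-high and FOLR1-high cells (33.4%), against 30, 24 and 33. The share difference of EIF2B5 was no longer counted (0 factors) at a marker share of 90%, at 4000 to 8000 counts or without called doublets, where a group had under 100 counts, nor at a limit of 30 points. A limit of 10 points gave 4, 2 and 4 factors in the pairs (11.0%, 10.5% and 13.1% of all genes), a minimum of 50 counts gave 1 between ERBB2-high and RARRES2-high cells (2.45%), and whole values alone gave 1 between ERBB2-high and FOLR1-high cells (2.77%). The cause was not tested. Of the other values for the named genes under an alternative, 340 stayed within their counting interval and 84 did not, and no called fold changed sign. Counts under 100 in a group, as for EIF2B3 or EEF1AKMT1, leave wide intervals.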
